A study of Mus musculus with 16 samples.

Results

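Mitochondrial ribosomal protein genes were followed through auxin-induced loss of DDX10 in E14 mouse embryonic stem cells. The genes were taken by name, as those beginning with Mrpl or Mrps and a digit, which gave 77 of the 14552 genes in the table of normalized counts, 48 named Mrpl and 29 named Mrps. All 77 averaged 10 normalized counts or more, as did 13355 genes of the table, which were the genes tested. Cells of every group had the same genotype, Ddx10-AID with Tir1, so DDX10 carried a tag that auxin (indole-3-acetic acid) directs to degradation through the plant F-box protein Tir1. All were grown on gelatin in high-glucose DMEM with 15% serum, LIF at 1000 U/mL, the GSK3 inhibitor CHIR99021 at 3 µM and the MEK inhibitor PD0325901 at 1 µM. The 8 groups had 2 libraries each: cells in 500 µM auxin for 2, 4, 6 or 12 h, for 1 day or for 2 days, cells kept without auxin for 2 days after 2 days in it (called withdrawal), and untreated cells of the same line. Untagged cells in auxin were not analysed here, so auxin itself and the loss of DDX10 cannot be told apart, and the labels leave unsaid whether replicates were grown separately, so that p-values may measure technical spread only. The withdrawal group may differ from the untreated one in time in culture as well.

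The mitochondrial ribosome makes the proteins that the mitochondrial genome encodes, which are core subunits of the respiratory chain. Its RNAs come from the mitochondrial genome, whereas its proteins are encoded in the nucleus, made in the cytosol and imported. Some of them have counterparts in bacterial ribosomes and others exist only in mitochondria, and the members are grouped below by subunit and by that origin. DDX10 is a nucleolar helicase that acts on cytosolic ribosomes, and the study's title places it in the processing of 18S rRNA.

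Normalized counts per library summed to 14871878 to 16900740.5. Ddx10 transcripts were present throughout, at 997 and 1041 normalized counts at 2 days of auxin against 1433 and 1509 in untreated cells, and since the degron acts on the protein this does not measure the degradation. Markers of embryonic stem cells, 8 of 8 in the table and none at 0, summed to between 79572 and 119008 normalized counts in each library. Sums per library were 124 to 238 for fibroblast markers, 80.2 to 166 for primitive endoderm markers, 454 to 1201 for trophectoderm markers and 1729.7 to 2732 for neural markers, and none of the markers in the table was at 0 in every library. These sums differed between groups, some in the direction of the members and some not. The trophectoderm sum averaged 986 in untreated cells, 568 at 12 h, 578 at 1 day, 612 at 2 days and 1176 after withdrawal. The primitive endoderm sum averaged 80.6 in untreated cells, 116 at 12 h, 137 at 1 day, 159 at 2 days and 99 after withdrawal. The stem cell sum averaged 106774 in untreated cells, 80629 at 12 h, 99772 at 1 day, 101448 at 2 days and 117941 after withdrawal. The neural sum averaged 2276 in untreated cells, 1868 at 12 h, 2057 at 1 day, 1955 at 2 days and 2337 after withdrawal. The fibroblast sum averaged 185 in untreated cells, 235 at 12 h, 155 at 1 day, 172 at 2 days and 143 after withdrawal. At 2 h the means were 978 for trophectoderm, 113 for primitive endoderm, 92439 for stem cell, 1894 for neural and 155 for fibroblast markers. The part of these sums in the results below was not tested. Within the bulk samples, fewer cells of a type and less RNA per cell cannot be told apart.

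All 77 genes were expressed in every library. In untreated cells their mean levels ran between 188 and 2583 normalized counts, with a median of 889. Per 1000 bases of transcript, Mrpl17 (large subunit) had the highest untreated level, 3278 normalized counts per kilobase, ahead of Mrpl42 at 3122, Mrps18b at 2413, Mrpl20 at 2392 and Mrpl12 at 1963. The lowest was Mrpl57 (large subunit) at 65.4 normalized counts per kilobase, below Mrpl32 at 126. These 2 also had long reference transcripts, of 2877 and 3013 bases, and Mrpl33 had no reference length. The members together made up 0.491% and 0.455% of a library in untreated cells, 0.367% and 0.378% at 12 h, 0.446% and 0.423% at 2 days, and 0.462% and 0.465% after withdrawal. The untreated libraries themselves differed: replicate 1 lay above replicate 2 by a median of 0.15 on the log2 scale over the members. At 1 day the median member stood at -0.32 relative to the untreated mean on the log2 scale in replicate 1 and at -0.11 in replicate 2.

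**Figure D1:**
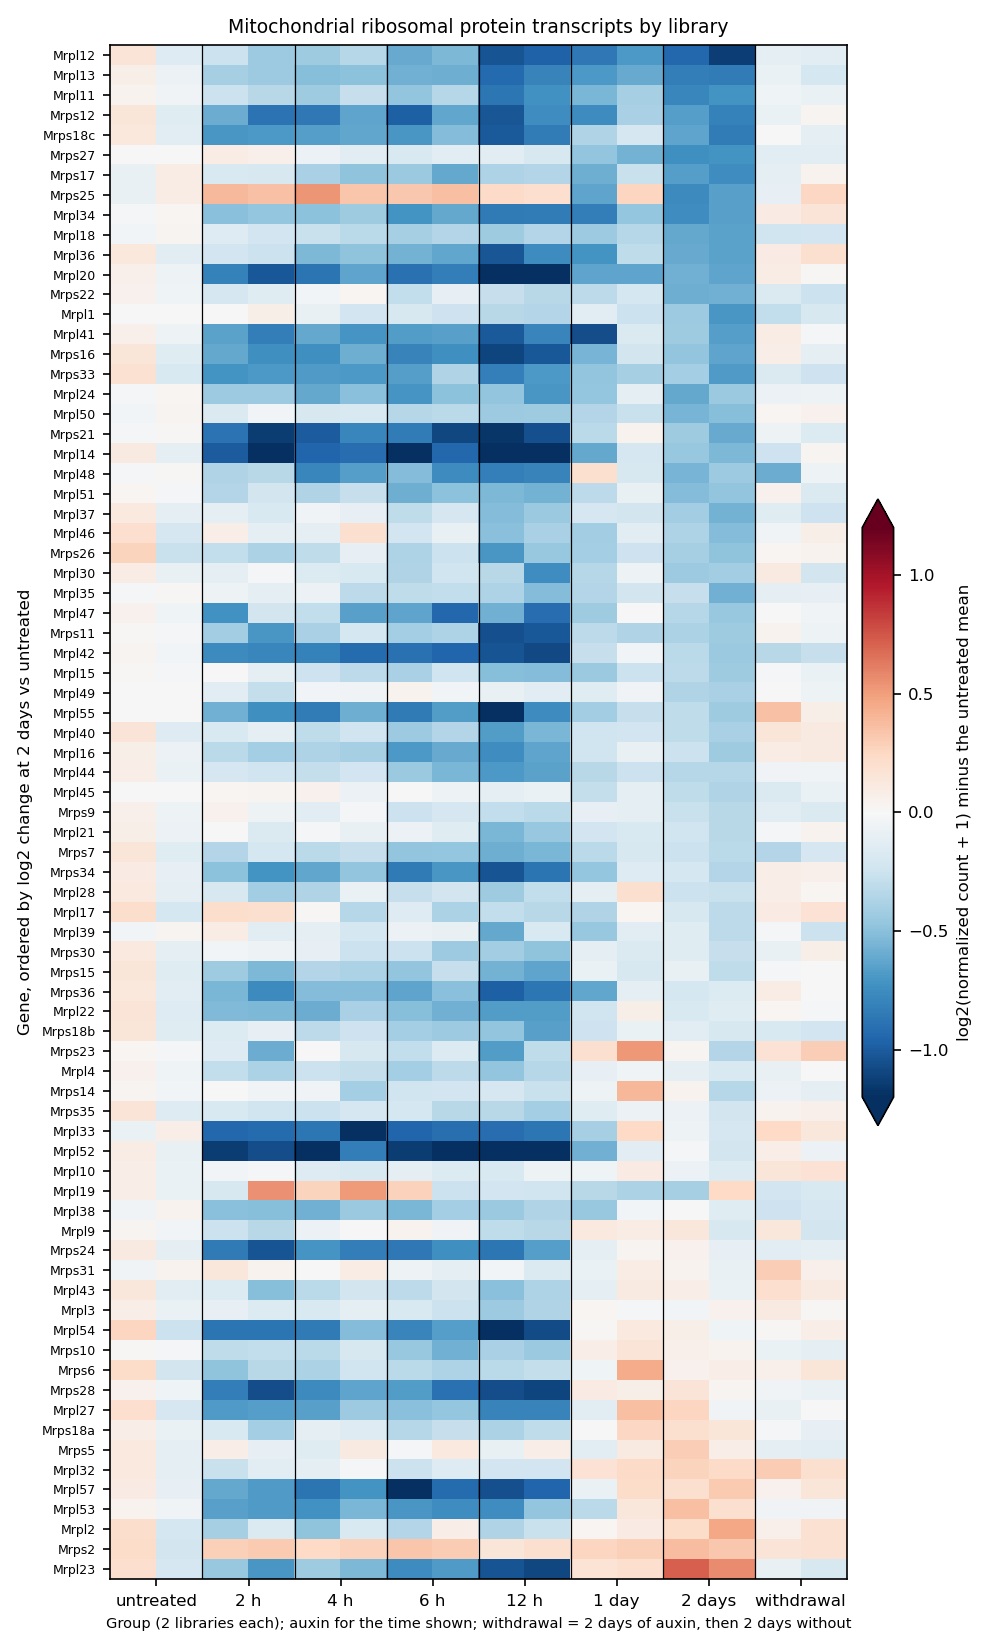
Level of each of the 77 genes (rows, ordered by their change at 2 days) in each of the 16 libraries (columns, 2 per group), as log2(normalized count + 1) minus the untreated mean; blue is lower and red higher than untreated. Most rows are blue between 2 h and 2 days and close to white after withdrawal, with Mrpl12 at the top at -1.04 and Mrpl23 at the bottom at 0.64 at 2 days.

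After 2 days of auxin about as many members had fallen as had not changed detectably. Of the 77, 37 were lower and 2 higher than in untreated cells at an adjusted p below 0.05 (limma, Benjamini-Hochberg over all 13355 genes). Among all genes tested, 23.8% were lower and 21.0% higher. The median log2 change of the members was -0.30, with 62 of 77 below 0, and that of all genes was -0.012. Over all tested genes with transcripts of at most 1000 bases it was -0.12. The falls were moderate, with levels of 48.6% to 81.8% of untreated among the 37 and a median of 70.0%. Without 2-day replicate 2, in which the members stood lower, 1 library was left at 2 days, and fewer members and fewer of all genes were called lower. Over the fits that each left out 1 library of the series, the median change of the members ran from -0.38 to -0.22.

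Mrpl12, the stalk protein of the large subunit through which translation factors are recruited, fell most. It had 1337 and 1173 normalized counts at 2 days against 2865 and 2302 in untreated cells, a log2 change of -1.04 (SE 0.11, adjusted p = 4.6e-06). Both treated libraries lay far below both untreated ones. Mrpl11, which sits at the base of the same stalk, had 730.0 and 761 normalized counts at 2 days against 1293 and 1219 in untreated cells, a log2 change of -0.75 (SE 0.09, adjusted p = 1.9e-05). Mrpl13, a large subunit protein with a bacterial counterpart, had 847 and 843 normalized counts at 2 days against 1588 and 1434 in untreated cells, a log2 change of -0.84 (SE 0.08, adjusted p = 3.3e-06). Its exons share 330 bases with those of Mtbp on the opposite strand, and whether reads were counted by strand is not given in the sources used here.

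In the small subunit, Mrps12, the counterpart of the bacterial decoding-centre protein, had 488 and 441 normalized counts at 2 days against 857 and 698 in untreated cells, a log2 change of -0.74 (SE 0.17, adjusted p = 0.0031). Mrps27, a pentatricopeptide repeat protein found only in mitochondria, had 606 and 611 normalized counts at 2 days against 1009 and 1007 in untreated cells, a log2 change of -0.73 (SE 0.07, adjusted p = 4.4e-06). For Mrps27 the replicates were close, so the difference was large beside their spread. Mrps17, also of the small subunit, had 632 and 594 normalized counts at 2 days against 940.0 and 1063 in untreated cells (log2 change -0.71, adjusted p = 0.00022). Mrps25 had 586 and 635 normalized counts at 2 days against 939 and 1062 in untreated cells (log2 change -0.71, adjusted p = 0.012). This value is less certain, since 3533 bases of its exons overlap Nr2c2 on the other strand and its call was lost without untreated replicate 2 (adjusted p = 0.072) and without 2-day replicate 1 (adjusted p = 0.07).

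The 2 members that rose at 2 days were Mrpl23 and Mrps2. Mrpl23, a protein beside the exit of the nascent peptide tunnel, had 557 and 504 normalized counts at 2 days against 390.0 and 295 in untreated cells, a log2 change of 0.64 (SE 0.14, adjusted p = 0.0025). It has an annotated processed pseudogene, so how its reads were assigned is uncertain. Mrps2, a small subunit protein with a bacterial counterpart, had 2299 and 2234 normalized counts at 2 days against 2082 and 1524 in untreated cells, a log2 change of 0.35 (SE 0.11, adjusted p = 0.016). Untreated replicate 2 set this difference: without it the log2 change was 0.12 (adjusted p = 0.19). The call was also lost without 2-day replicate 1 (adjusted p = 0.08) or 2-day replicate 2 (adjusted p = 0.053).

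**Figure D2:**
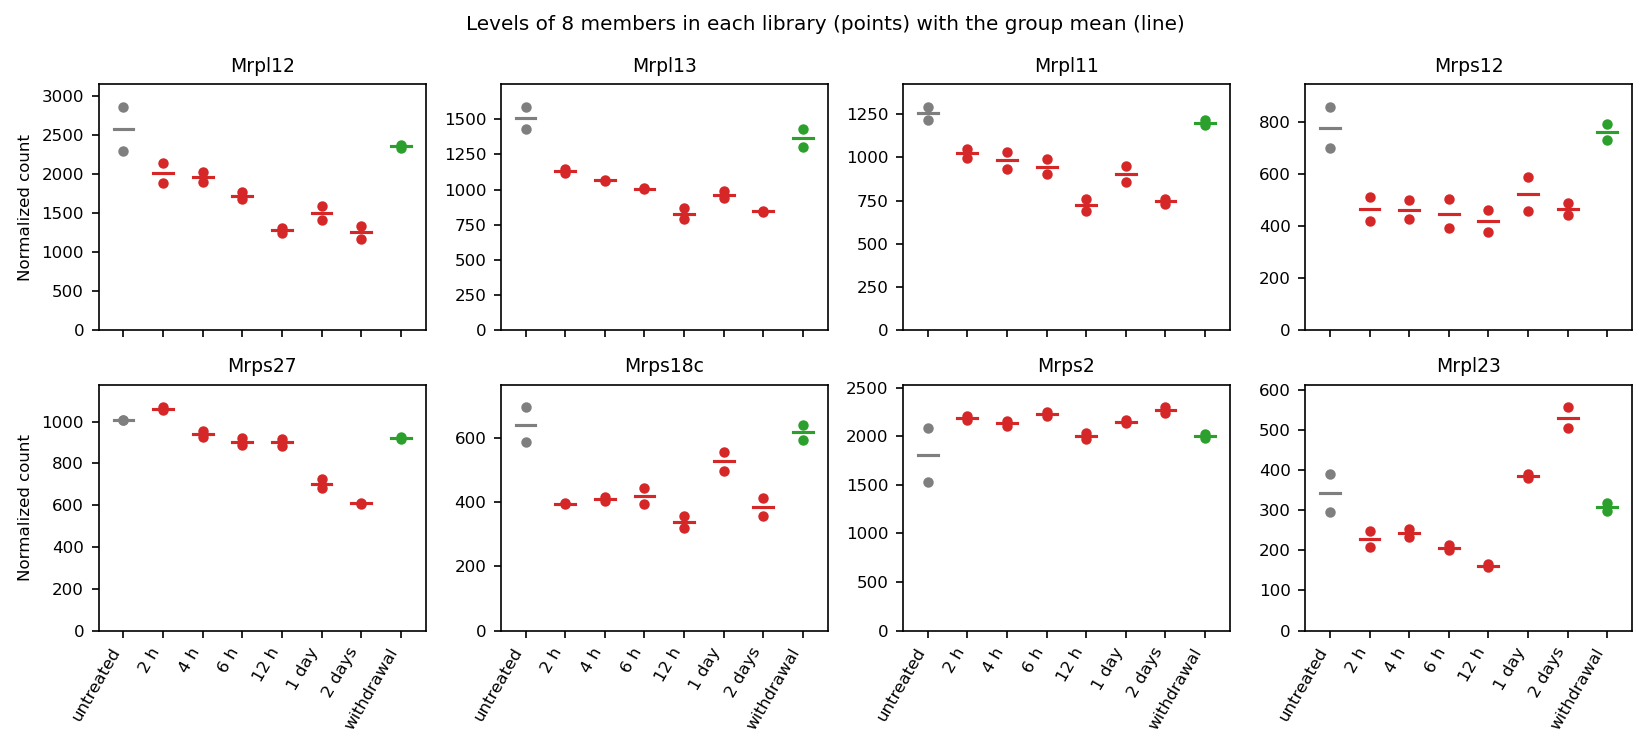
Normalized counts of 8 members in each library (points) with the group mean (line), from untreated cells through 2, 4, 6 and 12 h, 1 day and 2 days of auxin to withdrawal. Mrpl12, Mrpl13, Mrpl11 and Mrps27 are low at 2 days and near the untreated level after withdrawal, while Mrpl23 is low at 12 h (165 and 159) and high at 2 days (557 and 504).

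Every structural group held members that fell, and the counts below stand against 23.8% of all genes lower and 21.0% higher at 2 days. Of 30 large subunit proteins with a bacterial counterpart, 14 were lower and 1 higher at 2 days, with a median log2 change of -0.36. Of 20 large subunit proteins listed as specific to mitochondria, 10 were lower and 0 higher, with a median of -0.34. Of 16 small subunit proteins with a bacterial counterpart, 8 were lower and 1 higher, with a median of -0.25, and of 10 small subunit proteins specific to mitochondria 5 were lower and 0 higher, with a median of -0.36. These medians were not tested against each other. The lists specific to mitochondria include Mrps18a (large subunit) and Mrps18b (small subunit), although both are relatives of a bacterial protein. The remaining member, Mrps36, carries a ribosomal name but was later placed in the alpha-ketoglutarate dehydrogenase complex. It had 442 and 457 normalized counts at 2 days against 559 and 470.1 in untreated cells and was not called (adjusted p = 0.34), and it has 3 annotated pseudogenes.

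Mouse cells have 3 relatives of the bacterial S18 protein, and they occupy different places. Mrps18c, in the small subunit, had 414 and 357 normalized counts at 2 days against 698 and 589 in untreated cells, a log2 change of -0.74 (SE 0.12, adjusted p = 0.00027). Mrps18b, also in the small subunit, had 1764 and 1685 normalized counts at 2 days against 2127 and 1748 in untreated cells (log2 change -0.16, adjusted p = 0.2). Mrps18a, which sits in the large subunit despite its name, had 753 and 729 normalized counts at 2 days against 696 and 626 in untreated cells (log2 change 0.17, adjusted p = 0.24). Only Mrps18c was called, and the differences between the 3 were not tested. Mrps30, likewise a large subunit protein, had 1321 and 1207 normalized counts at 2 days against 1580.4 and 1347 in untreated cells (log2 change -0.21, adjusted p = 0.11).

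At 1 day fewer members had passed the test. Of the 77, 18 were lower and 0 higher than in untreated cells, against 17.7% and 15.9% of all genes tested, with a median log2 change of -0.20 and 59 of 77 below 0. At an unadjusted p below 0.05, 29 were lower and 1 was higher, with no share of all genes taken at that threshold. The count depends on which libraries are used. It was smaller without untreated replicate 1 and without 1-day replicate 1, in which the members were lower, and each fit left 1 library in a group. Of all genes, fewer were lower in the former fit and more in the latter. With 1 library of the series left out, the median ran from -0.32 to -0.11. When only the libraries of the 2 groups were fitted, 3 members and 537 of all genes were lower.

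Mrpl12 again stood lowest, with 1417 and 1590.5 normalized counts at 1 day against 2865 and 2302 in untreated cells (log2 change -0.77, adjusted p = 9.9e-05). Mrpl13 had 938 and 991 normalized counts at 1 day against 1588 and 1434 in untreated cells (log2 change -0.65, adjusted p = 5.4e-05). Mrpl20, a large subunit protein with a bacterial counterpart, had 762 and 763 normalized counts at 1 day against 1235 and 1128 in untreated cells (log2 change -0.63, adjusted p = 0.00037). These 3 had replicates close together at 1 day. Mrpl34, a short large subunit protein, had 305 and 394 normalized counts at 1 day against 536 and 553 in untreated cells (log2 change -0.65, adjusted p = 0.00094). Mrps27 had 724 and 681 normalized counts at 1 day against 1009 and 1007 in untreated cells (log2 change -0.52, adjusted p = 0.00013).

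Mrpl34 and Mrps27 lost the call when only the libraries of the 2 groups were fitted (adjusted p = 0.087 for Mrpl34 and 0.076 for Mrps27).

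Other calls at 1 day were lost when a library was left out. Mrps12 had 459 and 589 normalized counts at 1 day against 857 and 698 in untreated cells (log2 change -0.57, adjusted p = 0.019). Mrpl36 had 401 and 534 normalized counts at 1 day against 718 and 606 in untreated cells (log2 change -0.51, adjusted p = 0.011). Both lost the call without 1-day replicate 1 (adjusted p = 0.13 for Mrps12 and 0.1 for Mrpl36) and without untreated replicate 1 (adjusted p = 0.12 and 0.08). Mrpl41, a large subunit protein found only in mitochondria, had 164 and 306 normalized counts at 1 day against 359 and 330.1 in untreated cells (log2 change -0.62, adjusted p = 0.044), a call that was lost in 19 of 27 alternative fits. Set directly against 1 day, 3 members were lower at 2 days and 0 higher, against 5.65% of all genes called in either direction.

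The S18 relatives and the members with misleading names were not called at 1 day. Mrps18c had 498 and 559 normalized counts at 1 day against 698 and 589 in untreated cells (log2 change -0.28, adjusted p = 0.093). Mrps36 had 332 and 477 normalized counts at 1 day against 559 and 470.1 in untreated cells (log2 change -0.36, adjusted p = 0.086). The log2 changes were -0.16 for Mrps18b (adjusted p = 0.21), 0.12 for Mrps18a (adjusted p = 0.44) and -0.14 for Mrps30 (adjusted p = 0.3), with overlap between the groups for all 3.

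**Figure D3:**
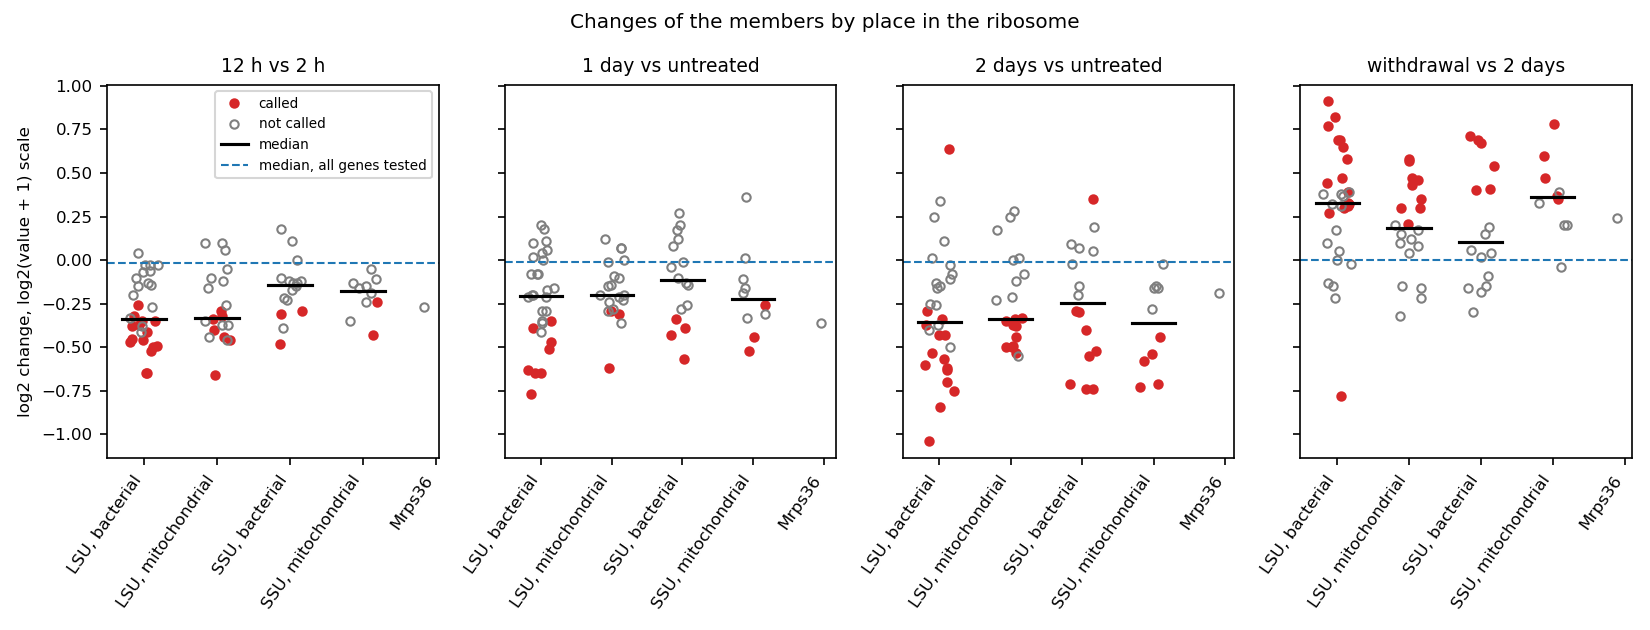
Log2 change of each member by its place in the ribosome (LSU, large subunit; SSU, small subunit; bacterial, with a bacterial counterpart; mitochondrial, specific to mitochondria) in 4 comparisons; filled points passed the test, black lines are group medians and the dashed line is the median of all genes tested. Members lie mostly below the dashed line at 12 h, 1 day and 2 days and mostly above it on withdrawal, where Mrpl23 is the lone called point below at -0.78.

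After 2 days without auxin the median member was back near the untreated level. Against untreated cells 0 of 77 were called in either direction (limma, adjusted p below 0.05), where 2.79% of all genes were called. At an unadjusted p below 0.05 there were 6 lower and 1 higher, with no share of all genes taken at that threshold. The median log2 change was -0.04. Against 2 days of auxin, with which this comparison shares its starting libraries, 35 members were higher and 1 lower after withdrawal, and 22.2% and 19.1% of all genes were higher and lower. The 37 members that were lower at 2 days, chosen by their 2-day values, stood at 80.8% to 110% of the untreated mean after withdrawal, with a median of 96.3%. Not all of them rose much: Mrps7 stood at 81.2% at 2 days and 82.3% after withdrawal, and Mrpl42 at 76.6% and 80.8%.

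Mrpl12 had 2377 and 2336 normalized counts after withdrawal against 1337 and 1173 at 2 days, a log2 change of 0.91 (SE 0.11, adjusted p = 1.7e-05). Mrpl34 had 582 and 605 normalized counts after withdrawal against 324 and 347 at 2 days (log2 change 0.82, adjusted p = 0.00011). Mrpl36 had 704 and 754 normalized counts after withdrawal against 434 and 422 at 2 days (log2 change 0.77, adjusted p = 0.00059). All 3 are large subunit proteins with bacterial counterparts. Mrps12 had 729.5 and 791 normalized counts after withdrawal against 488 and 441 at 2 days (log2 change 0.71, adjusted p = 0.0045). Mrps25 had 931 and 1184 normalized counts after withdrawal against 586 and 635 at 2 days (log2 change 0.78, adjusted p = 0.0076), with the call lost without withdrawal replicate 2 (adjusted p = 0.081) or 2-day replicate 1 (adjusted p = 0.051). Mrpl13, Mrpl11 and Mrps18c each rose by 0.69 on the log2 scale. Mrpl23, the member that was higher at 2 days, had 319 and 297 normalized counts after withdrawal against 557 and 504 at 2 days (log2 change -0.78, adjusted p = 0.0007). Not called against 2 days were Mrps18a (log2 change -0.22, adjusted p = 0.13), Mrps18b (-0.04, adjusted p = 0.75), Mrps30 (0.20, adjusted p = 0.13) and Mrps36 (0.24, adjusted p = 0.24). Fewer members and fewer of all genes were called higher without 2-day replicate 2 or without withdrawal replicate 1, fits that leave 1 library in a group. With 1 library of the series left out, the median change of the members ran from 0.23 to 0.35.

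Within the first day, the times were set against 2 h and not against untreated cells, because short transcripts stand lower in all libraries of 2 to 12 h. At 4 h 0 of 77 members were called against 2 h (limma, adjusted p below 0.05), where 2.45% of all genes were, with 3 higher and 5 lower at an unadjusted p below 0.05 and a median log2 change of -0.00. At 6 h 0 were called, where 7.80% of all genes were, with 2 higher and 17 lower at an unadjusted p below 0.05 and a median of -0.09. For the unadjusted counts at 4 h and 6 h the share of all genes was not taken. At 12 h 27 members were lower and 0 higher than at 2 h, while 13.7% of all genes were lower and 10.9% higher. The median change at 12 h was -0.26 and 70 of 77 were below 0. Leaving out any 1 of the 4 libraries leaves 1 library in a group, and fewer members and fewer of all genes were then called lower. Over the fits that each left out 1 library of the series, the median change of the members ran from -0.28 to -0.21.

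Mrpl12 had 1252 and 1312 normalized counts at 12 h against 2147 and 1894 at 2 h, a log2 change of -0.65 (SE 0.11, adjusted p = 0.00067). Mrpl11, its neighbour at the stalk, had 688 and 759 normalized counts at 12 h against 1051 and 996 at 2 h (log2 change -0.50, adjusted p = 0.0014). Mrpl36 had 323 and 391 normalized counts at 12 h against 563 and 550.4 at 2 h (log2 change -0.65, adjusted p = 0.0042), and its adjusted p was 0.057 without 12 h replicate 1. Mrps11, a small subunit protein with a bacterial counterpart, had 303 and 312 normalized counts at 12 h against 474 and 389.9 at 2 h (log2 change -0.48, adjusted p = 0.006), and its adjusted p was 0.086 without 2 h replicate 1.

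Mrpl52, found only in mitochondria, had 112 and 115 normalized counts at 12 h against 175 and 184 at 2 h (log2 change -0.66, adjusted p = 0.015). Mrpl17 had 1964 and 1920.0 normalized counts at 12 h against 2801 and 2754 at 2 h (log2 change -0.52, adjusted p = 0.023). Mrpl30 had 730.4 and 549 normalized counts at 12 h against 851 and 904 at 2 h (log2 change -0.47, adjusted p = 0.029). Although their groups did not overlap, each of these 3 large subunit genes lost its call in 3 or 4 of the fits that left out 1 of the 4 libraries, with adjusted p up to 0.086 for Mrpl52, 0.11 for Mrpl17 and 0.3 for Mrpl30. Mrpl23 had 165 and 159 normalized counts at 12 h against 247 and 208 at 2 h (log2 change -0.49, adjusted p = 0.025), and its adjusted p was 0.19 without 2 h replicate 1, 0.083 without 12 h replicate 1 and 0.12 without 12 h replicate 2. Mrps18b (log2 change -0.43, adjusted p = 0.006) and Mrps30 (log2 change -0.40, adjusted p = 0.01), neither of which was called at 2 days, were also lower at 12 h than at 2 h. Mrps18b lost the call without 2 h replicate 2 (adjusted p = 0.054) and without 12 h replicate 2 (adjusted p = 0.077), and Mrps30 without 2 h replicate 1 (0.065), 2 h replicate 2 (0.054) or 12 h replicate 2 (0.08). Mrps12 (log2 change -0.15, adjusted p = 0.58), Mrps18c (-0.23, adjusted p = 0.19), Mrps18a (-0.05, adjusted p = 0.78) and Mrps36 (-0.27, adjusted p = 0.24) were not called at 12 h.

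The comparison of 12 h with 2 h and that of 2 days with untreated cells have no library in common. Of the 27 members lower at 12 h, 21 were among the 37 lower at 2 days, which is 77.8% of the first list and 56.8% of the second. Over all genes tested, 1262 were lower in both, 69% of 1829 and 39.7% of 3179. Both changes were below 0 for 58 of 77 members (75.3%) and for 35.3% of all genes. As 70 of the 77 were below 0 at 12 h and 62 at 2 days, most had to be below 0 in both. The shared members included Mrpl12, Mrpl13, Mrpl11, Mrpl36 and Mrps27. Across the 77 members the 2 changes had a Spearman correlation of 0.40, and across all genes 0.46, where genes are not independent replicates.

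The members' own transcripts are short, and this bears on the 2 h samples. The 76 with a reference length had a median of 1051.5 bases, against 2179.25 bases for all genes tested. At 2 h 33 members were lower and 0 higher than in untreated cells, where 8.45% of all genes were lower and 6.75% higher, and the median log2 change was -0.30. At an unadjusted p below 0.05, 46 were lower and 1 was higher, with no share of all genes taken at that threshold. Fewer members and fewer of all genes were called lower without untreated replicate 1, 2 h replicate 1 or 2 h replicate 2, fits that leave 1 library in a group. With 1 library of the series left out, the median change of the members ran from -0.39 to -0.22. The 35 members of at most 1000 bases had a median change of -0.58 at 2 h and the 41 longer ones -0.17, while over all genes tested the medians were -0.17 for short and 0.03 for longer transcripts. Change and length had a Spearman correlation of 0.62 across the members at 2 h. At 2 days the correlation was 0.10, with medians of -0.28 for short and -0.34 for longer members. At 12 h against 2 h it was 0.06, with medians of -0.27 and -0.26. Over all genes tested, short transcripts were also lower at these times. Their medians were -0.12 at 2 days and -0.11 at 12 h against 2 h, against 0.01 and 0.00 for longer ones. For withdrawal against 2 days they were 0.10 for short and -0.02 for longer transcripts. The direction of the change at 2 h is therefore given as a value only, since time in auxin and what sets the 2 to 12 h libraries apart cannot be told apart.

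The members lowest at 2 h were Mrpl14, Mrpl52, Mrps21, Mrps28, Mrps24, Mrpl33, Mrpl20 and Mrpl54. Mrpl14 had 251 and 196 normalized counts at 2 h against 542 and 467 in untreated cells (log2 change -1.17, adjusted p = 0.002). Mrpl52 had 175 and 184 normalized counts at 2 h against 411 and 362 in untreated cells (log2 change -1.10, adjusted p = 0.0015). Mrps21 had 322 and 269.7 normalized counts at 2 h against 588 and 602 in untreated cells (log2 change -1.01, adjusted p = 0.00074). The remaining 5 had log2 changes of -0.95 to -0.88 at 2 h. Of these 8 genes, Mrps21 and Mrpl20 were also called lower at 2 days, as were 37 of all 77 members and 23.8% of all genes tested. Both comparisons use the same untreated libraries.

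**Figure D4:**
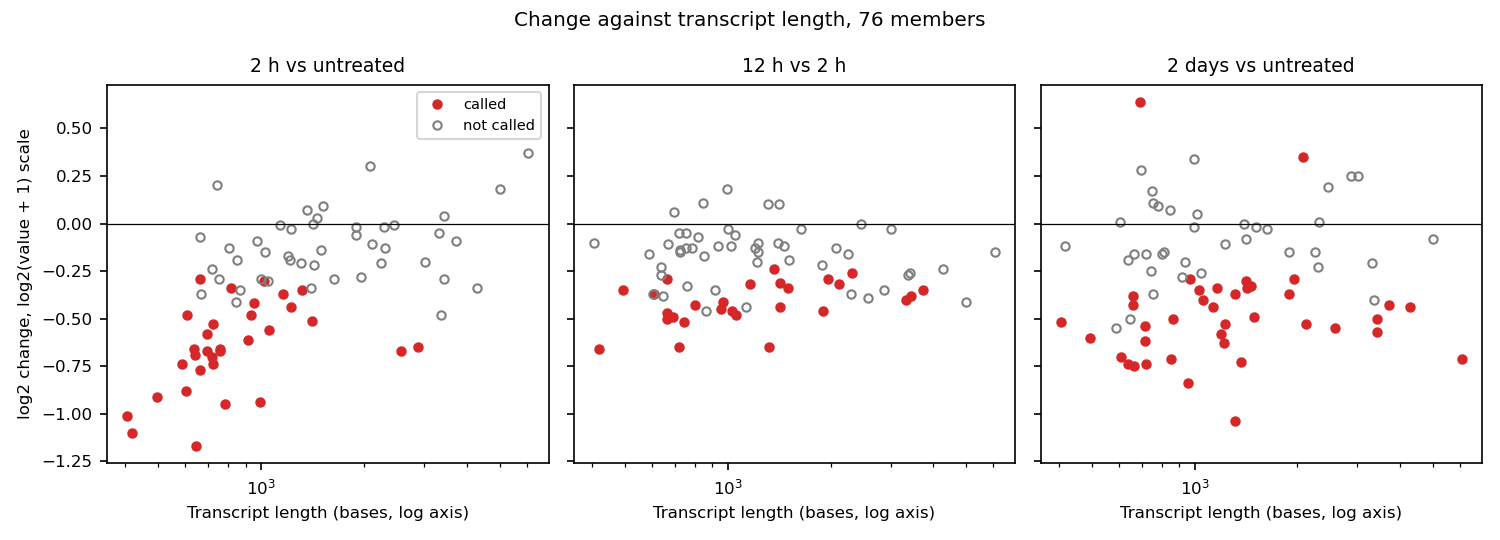
Log2 change of the 76 members with a reference length against transcript length (bases, log axis) at 2 h against untreated, 12 h against 2 h and 2 days against untreated; filled points passed the test. The points slope upward with length at 2 h (Spearman 0.62) and show little slope at 12 h (0.06) and at 2 days (0.10).

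Many members start head to head with another gene. Of the 77, 33 (42.9%) have a coding gene on the opposite strand whose start lies within 1000 bases, against 2008 of 12642 tested coding genes (15.9%). The distance was taken in either direction, so some of these pairs overlap at their starts. Of 32 partners that were tested, 14 were lower and 2 higher at 2 days, which is 43.8% and 6.25%, against 23.8% and 21.0% of all genes tested. Of the 32, 2 were members themselves, Mrpl46 and Mrps11. The starts of that pair lie 412 bases apart and the 2 genes overlap there. They moved together, with log2 changes of -0.44 and -0.40 at 2 days and both called lower. Mrps18c (log2 change -0.74) and Helq, a DNA helicase starting 29 bases away (-0.63), were also both lower. So were Mrpl18 (-0.63) and Tcp1, a subunit of the cytosolic chaperonin (-0.57), and Mrps27 (-0.73) and Ptcd2 (-0.40).

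In other pairs the partners were not called in the same direction at 2 days, and no difference between partners was tested. Mrps12 and Sars2, the mitochondrial seryl-tRNA synthetase, start 172 bases apart, and Mrps12 was lower (-0.74) while Sars2 was higher (0.38). Mrpl57 (log2 change 0.25, not called) starts 49 bases from Ska3, a kinetochore protein that was lower (-0.82). Mrpl32 (0.25, not called) starts 75 bases from the proteasome subunit gene Psma2, which was lower (-0.54). Mrpl13 was lower (-0.84) and its partner Mtbp was not called (0.03).

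**Figure D5:**
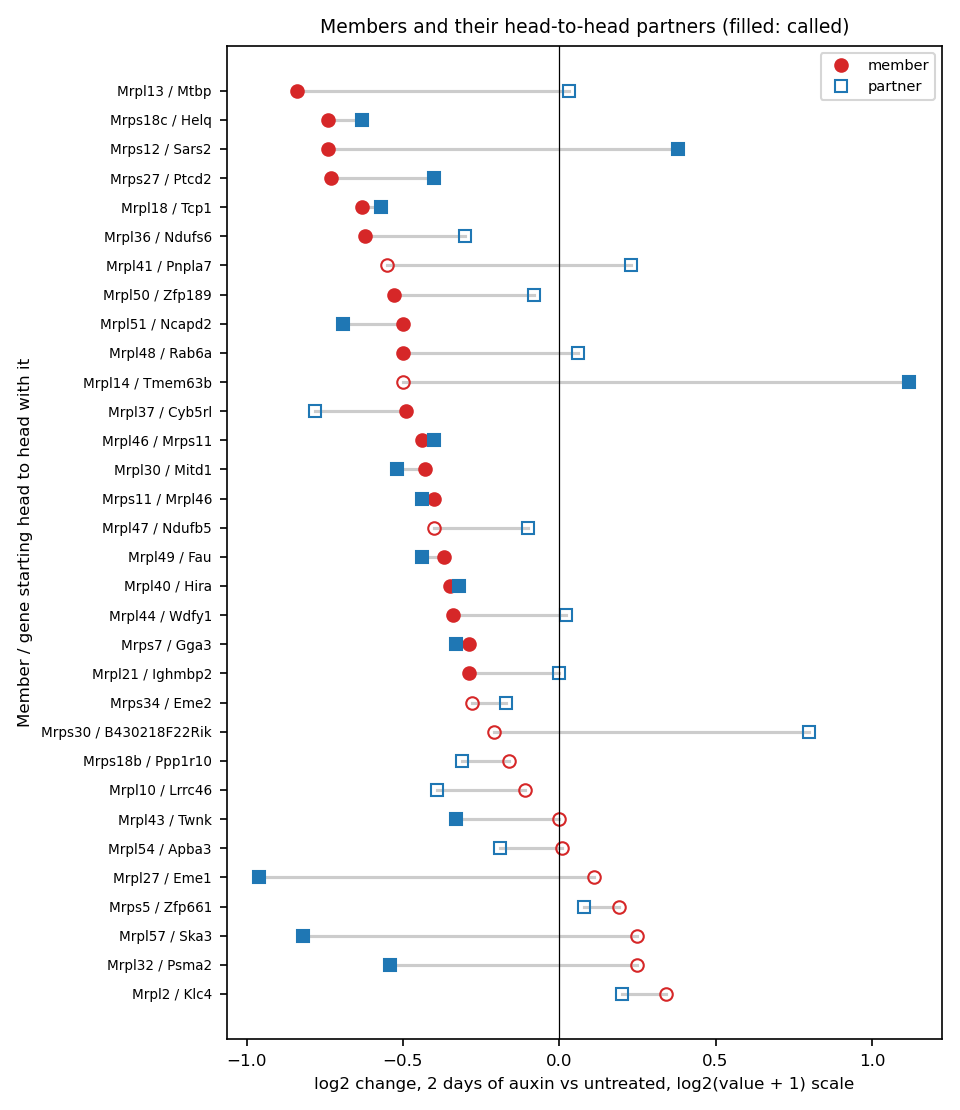
Log2 change at 2 days of auxin against untreated for the 32 members with a tested head-to-head partner (circles) and for the partner (squares), joined by a line and ordered by the member; filled symbols passed the test. Mrps18c and Helq lie close together on the left, while Mrps12 (-0.74) and Sars2 (0.38) lie on opposite sides of 0.

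Promoter windows from RefSeq (GRCm38.p6, 250 bases before to 50 bases after the start) were found for 68 of the 77 members. They were searched on both strands for 4 motifs of factors known to act on nuclear genes for mitochondria or on growth genes. CCGGAAG, of ETS type (the family of GABPA), was found in 25 of the 68 (36.8%), in 19.8% of tested genes with a window and in 9.93% of all windows. AAGATGGC, of YY1 type, was found in 12 (17.6%), in 5.14% of tested genes and in 3.19% of all windows. GCGCATGC, of NRF1 type, was found in 8 (11.8%), in 6.29% of tested genes and in 3.05% of all windows. CACGTG, the E-box that MYC and related factors bind, was found in 5 (7.35%), in 12.1% of tested genes and in 8.09% of all windows. Among the 35 members lower at 2 days that had a window, 13 held the ETS-type letters, 9 the YY1-type, 0 the NRF1-type and 4 the E-box, and among the other 33 the counts were 12, 3, 8 and 1. The lists were formed from the measured change and these counts were not tested.

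Windows of 6 members are shown 5′ to 3′ on the gene's own strand, with the searched motifs in capitals. Mrps12, Mrps27 and Mrps18c fell at 2 days and hold motifs, Mrpl32 was not called and holds YY1-type letters and NRF1-type letters, which lie on both strands with an overlap in 1 stretch, and Mrpl12 and Mrpl23, the largest fall and rise at 2 days, hold none of the 4.
Mrps12 (chr7:28741772-28742071, minus strand): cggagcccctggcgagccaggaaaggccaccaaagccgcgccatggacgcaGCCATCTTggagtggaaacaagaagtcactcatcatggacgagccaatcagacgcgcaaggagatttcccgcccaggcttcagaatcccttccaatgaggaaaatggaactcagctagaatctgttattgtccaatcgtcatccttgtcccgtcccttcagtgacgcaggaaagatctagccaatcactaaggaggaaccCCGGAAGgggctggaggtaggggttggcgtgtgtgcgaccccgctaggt
Mrps27 (chr13:99344536-99344835, plus strand): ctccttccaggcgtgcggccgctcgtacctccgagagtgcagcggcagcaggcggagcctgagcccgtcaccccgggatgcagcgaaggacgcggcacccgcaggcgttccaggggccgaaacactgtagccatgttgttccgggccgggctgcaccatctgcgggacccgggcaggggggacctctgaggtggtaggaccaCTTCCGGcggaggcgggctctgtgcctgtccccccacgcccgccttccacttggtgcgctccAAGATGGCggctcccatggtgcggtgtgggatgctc
Mrps18c (chr5:100798509-100798808, plus strand): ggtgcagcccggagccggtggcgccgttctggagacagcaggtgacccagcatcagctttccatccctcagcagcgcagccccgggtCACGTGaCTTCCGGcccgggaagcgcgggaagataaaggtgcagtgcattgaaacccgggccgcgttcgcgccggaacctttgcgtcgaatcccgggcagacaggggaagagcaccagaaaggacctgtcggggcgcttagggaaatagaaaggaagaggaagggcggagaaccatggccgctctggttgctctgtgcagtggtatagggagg
Mrpl32 (chr13:14612988-14613287, minus strand): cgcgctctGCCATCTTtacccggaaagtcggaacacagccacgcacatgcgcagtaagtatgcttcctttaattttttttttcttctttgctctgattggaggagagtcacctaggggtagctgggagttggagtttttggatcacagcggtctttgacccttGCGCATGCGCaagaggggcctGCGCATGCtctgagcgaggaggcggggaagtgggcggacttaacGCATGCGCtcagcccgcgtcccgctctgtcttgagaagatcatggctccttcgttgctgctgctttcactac
Mrpl12 (chr11:120484387-120484686, plus strand): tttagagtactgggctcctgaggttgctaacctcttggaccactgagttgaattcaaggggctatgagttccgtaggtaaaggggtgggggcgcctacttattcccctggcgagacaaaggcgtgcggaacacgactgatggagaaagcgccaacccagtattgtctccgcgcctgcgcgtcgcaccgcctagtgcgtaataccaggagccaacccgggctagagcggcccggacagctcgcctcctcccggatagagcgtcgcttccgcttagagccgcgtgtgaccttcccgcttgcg
Mrpl23 (chr7:142532782-142533081, plus strand): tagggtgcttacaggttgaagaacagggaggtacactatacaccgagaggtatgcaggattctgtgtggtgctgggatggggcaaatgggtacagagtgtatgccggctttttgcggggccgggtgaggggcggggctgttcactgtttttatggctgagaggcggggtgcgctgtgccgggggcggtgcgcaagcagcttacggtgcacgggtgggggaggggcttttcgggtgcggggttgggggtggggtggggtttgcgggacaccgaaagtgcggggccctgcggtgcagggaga
The windows of Mrps12, Mrps27, Mrps18c and Mrpl32 also take in the start of the head-to-head partner. In Mrps12 the YY1-type letters come first, on the side of Sars2, and the ETS-type letters lie at the start of Mrps12, while in Mrps27 the ETS-type letters come first. In Mrps18c the E-box and the ETS-type letters are separated by a single base. The absence of capitals in Mrpl12 and Mrpl23 says only that these letters are not in the window.

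Transcripts of the same factors were measured. Myc, the growth regulator, had 46.6 and 67.1 normalized counts at 2 days against 438 and 435 in untreated cells, a log2 change of -2.94 (SE 0.17, adjusted p = 4.2e-08). Myc was also lower at 12 h than at 2 h, with 138 and 113 normalized counts at 12 h against 322 and 299 at 2 h (log2 change -1.31, adjusted p = 0.00013). Nrf1 (log2 change -0.55, adjusted p = 0.00085), Yy1 (-0.39, adjusted p = 0.0013) and Gabpa (-0.43, adjusted p = 0.032) were lower at 2 days. In all, 6 of 10 regulators tested were lower at 2 days and 0 higher, against 23.8% and 21.0% of all genes tested. A relation between these levels and those of the members was not tested.

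Proteins of the mitochondrial ribosome under other names moved in the same direction. Of 5 genes (Dap3, Ptcd3, Aurkaip1, Chchd1 and Gadd45gip1) 4 were lower at 2 days and 0 higher, against 23.8% and 21.0% of all genes tested, with a median log2 change of -0.41. Ptcd3, a small subunit protein, had 2017 and 1995 normalized counts at 2 days against 3372 and 3332 in untreated cells (log2 change -0.74). Mrpl58, the rescue factor of the large subunit, is listed under its older name Ict1 and so lay outside the name rule. Ict1 had 648 and 575 normalized counts at 2 days against 716 and 584 in untreated cells (log2 change -0.08, adjusted p = 0.58).

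Genes that build or use the mitochondrial ribosome were mixed, and their counts stand against 23.8% of all genes lower and 21.0% higher at 2 days. The shares of assembly factors and of transcription and maintenance genes that were lower were near that background. Of 23 assembly factors tested, 6 were lower and 1 higher at 2 days, with a median log2 change of -0.11. The lower ones included Rpusd4 (-0.46), an RNA pseudouridine synthase, and Rbfa (-0.44). The one that was higher was Mettl17, a methyltransferase-like factor of the small subunit, with 664 and 828 normalized counts at 2 days against 148 and 139 in untreated cells (log2 change 2.36, adjusted p = 3.7e-06). Of 15 translation factors tested, 6 were lower and 0 higher with a median of -0.31, among them Gfm2 (-0.72), Tufm, the elongation factor (-0.55), Slirp (-0.72) and Mrrf, the recycling factor (-0.55). Of 9 genes of mitochondrial transcription and genome maintenance, 2 were lower and 1 higher, with a median of -0.23. The lower ones were Ssbp1 (-0.49) and Tfb2m (-0.33), and Polg, the mitochondrial DNA polymerase, was higher (0.22).

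Nuclear-encoded respiratory chain genes, whose products join the proteins made by the mitochondrial ribosome, served as a comparison. Of 80 tested, 27 were lower and 3 higher at 2 days, with a median log2 change of -0.13, against 37 lower and 2 higher of the 77 members with a median of -0.30. Of all genes tested, 23.8% were lower and 21.0% higher at 2 days, and 8.45% were lower at 2 h. At 2 h 60 of the 80 were lower than in untreated cells, with a median of -0.63, against 33 of the 77 members with a median of -0.30. The difference between the 2 lists was not tested.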

How the data were processed

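The deposited table holds a signal, normalized counts of reads, 14552 genes in 16 libraries, per the file headers and its values, which are not whole numbers. The submitters' processing notes name Trim Galore, STAR, RSEM, DESeq2 and the build mm10 (GRCm38), and give neither versions nor settings here. Per the labels' protocols, mRNA was purified from total RNA and made into libraries with a VAHTS Universal V6 kit. Depth in reads is not given in the sources used here.

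Values were analysed as log2(value + 1), which understates changes of low genes. Genes with a mean of at least 10 were fitted in 1 limma 3.58.1 model (R 4.3.3) with a mean per group, 8 residual degrees of freedom and an intensity trend. P-values were adjusted by Benjamini-Hochberg over all 13355 genes in each comparison, and a gene is called at an adjusted p below 0.05. With 2 libraries a group, the median standard error of a member's log2 change was 0.11. The code was tested on simulated data. Lengths, neighbours and overlaps came from GENCODE M21 on GRCm38, in which 14467 gene identifiers were found and 85 were not.

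The members, gene lists, motifs and tests were chosen with earlier results of these data known. Per comparison the naming rule takes up to 8 called members in either direction by size of change, without overlap between groups, plus Mrpl12, Mrps12, Mrps18a to Mrps18c, Mrps30, Mrps36, Mrpl58 and Ddx10, the highest and lowest member per length, and up to 4 genes of each other list by p. Values are printed for part of these, chiefly at 12 h, 1 day, 2 days and withdrawal against 2 days. Further members are named for their pairing with a neighbour or for their level, after their values were seen. Alternatives were a filter at 50 in place of 10 or none, pseudocounts of 0.5 and 5, 2 rescalings, a replicate block, the 2 groups alone, library weights, a robust fit, removal of length and GC trends, and leaving out each library.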

Additional observations from a re-analysis of the deposited data

Results flagged for a closer look

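Of the 77 members, 3 differed between 2 days and 1 day of auxin in a direct test of the 2 groups (limma, adjusted over all 13355 genes). Of all genes 754 did, which is 5.65%, so members were called no more often than genes at large. At an unadjusted p below 0.05 there were 22 members, but the share of all genes at that threshold was not taken. Mrps18c, the small subunit relative of bacterial S18, had 414 and 357 normalized counts at 2 days against 498 and 559 at 1 day, a log2 difference of -0.46 (adjusted p = 0.045). Mrpl1, of the large subunit, had 676 and 563 normalized counts at 2 days against 833 and 767 at 1 day, a log2 difference of -0.37 (adjusted p = 0.044). Mrpl49, also of the large subunit, had 1098 and 1077 normalized counts at 2 days against 1279 and 1372 at 1 day, a log2 difference of -0.28 (adjusted p = 0.045). All 3 were lower in both 2-day libraries than in both 1-day libraries, and all lie close to the threshold.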

How the results depend on the processing

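The median log2 change of the members kept its sign under all 27 alternatives at 1 day (-0.32 to -0.11), at 2 days (-0.38 to -0.22), at 12 h against 2 h (-0.28 to -0.17), at 2 h (-0.39 to -0.22) and for withdrawal against 2 days (0.22 to 0.35). Counts of calls were less stable. Where a count moved by over 1.5 times, the cause was not tested.

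Fitting only the 2 groups compared gave 3 members lower at 1 day and 1 higher at 2 days. It gave 4 lower after withdrawal against 2 days, 7 lower and 1 higher at 6 h and 9 lower at 2 h. Of all 13355 genes, that fit called 537 lower at 1 day and 1941 higher at 2 days. It called 3106 lower after withdrawal against 2 days, 1256 lower and 1018 higher at 6 h and 270 lower at 2 h. At 1 day and 6 h the shares of members lower were thus about those of all genes. Library weights gave 7 lower at 1 day, 4 lower after withdrawal against 2 days, and 17 lower and 1 higher at 6 h. Of all genes, they gave 1001 lower at 1 day, 3238 lower after withdrawal against 2 days, and 1420 lower and 1306 higher at 6 h. Removing length and GC trends gave 1 higher at 1 day, 5 higher at 2 days and 2 lower after withdrawal against untreated. It gave 4 lower after withdrawal against 2 days, and 3 lower and 1 higher at 6 h. Of all genes, 2255 were then higher at 1 day, 2824 higher at 2 days and 211 lower after withdrawal against untreated. After withdrawal against 2 days 2596 were lower, and at 6 h 537 were lower and 601 higher. Rescaling by the upper quartile gave 1 higher at 1 day and 2 lower after withdrawal against 2 days. The counts over all genes were then 2233 higher and 2923 lower.

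Leaving out each library in turn gave 0 to 1 higher and 10 to 26 lower at 1 day, 1 to 4 higher and 24 to 41 lower at 2 days, 0 to 1 higher and 0 to 2 lower for withdrawal against untreated, 18 to 39 higher and 1 to 3 lower for withdrawal against 2 days, 0 to 5 lower at 6 h, 11 to 33 lower at 12 h, and 0 to 1 higher and 11 to 37 lower at 2 h. At 4 h the count was 0 under all of them. The number of all genes called also changed from fit to fit. At 2 days the fewest members and the fewest of all genes were lower in the same fit, without 2-day replicate 2. At 12 h both numbers were smaller without a 2 h or 12 h library than in the other leave-out fits. At 2 h both were smallest without 2 h replicate 2. At 1 day they parted, since without 1-day replicate 1 fewer members but more of all genes were lower. Mrps18a, not called, ran between -0.01 (without 1-day replicate 2) and 0.24 at 1 day and between -0.17 and 0.06 (without 2 h replicate 1) at 12 h against 2 h, and so changed sign. Of 49 called values of named genes, 18 lost the call in at least 1 alternative.

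Same-numbered replicates did not deviate together (28 correlations of -0.06 to 0.07). With the replicate block 15 members were lower at 1 day, 37 at 2 days and 25 at 12 h, and 33 were higher after withdrawal than at 2 days. All were within 1.5 times of the counts without the block. Of all 13355 genes, the fit with the block called 2292 lower at 1 day, 3140 at 2 days and 1768 at 12 h. It called 2905 higher after withdrawal than at 2 days. The 2 rescalings moved the median of all genes to between -0.051 and 0.052.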
